A study of Mus musculus with 6 samples.

Results

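The genes described here are Plxnd1 and Nrp2, which encode semaphorin receptors, and Map2, L1cam and Uchl1, which are best known from neurons. They were taken as all probes whose platform annotation gives 1 of these 5 symbols, which is 6 of the 8734 probes in the table (2 for L1cam and 1 for each other gene) and 5 of 5644 genes tested under 1 symbol. The 5 genes were chosen by their low ratios in this same comparison, so those ratios are described without a test. The study compared cultured airway smooth muscle cells of beta2-adrenergic receptor-overexpressing mice (2AR-OE in the labels, transgenic below) with those of nontransgenic (NTG) mice, to learn what lasting signalling by this receptor does to gene expression. Both kinds of culture were grown out of pieces of trachea in medium with 20% fetal calf serum, with all pieces of 1 trachea in 1 dish, and RNA was taken between passages 8 and 10. The labels put more than 90% of such cells down as smooth muscle by staining for smooth muscle actin. The strain and age of the mice, the promoter of the transgene and how many animals were used were not given in the sources used here. Each of the 6 arrays carried RNA of both genotypes in different dyes. The transgenic RNA was in Cy5 on 4 arrays, named 1A, 1B, 2A and 2B after their titles, and in Cy3 on the other 2, 1C and 2C.

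Each value below is a log2 ratio, where -1 stands for 2-fold lower. The direction is likely transgenic over nontransgenic, because channel 1 holds the transgenic RNA on 4 of the 6 arrays, although their titles begin with the nontransgenic one. The 2 dye-swapped columns were taken as already turned to that direction, which the labels do not state. Arrays of opposite orientation correlated with r of 0.009 to 0.179 over all probes, against 0.357 to 0.697 between arrays with transgenic RNA in Cy5 and 0.313 between the swapped ones. If the ratios ran the other way every sign would turn, and if the swapped columns had not been turned the low ratios described here would belong to the dye and not to the genotype. Array 1C was the most scattered (SD 1.04 over its probes, against 0.467 to 0.608 on the other 5), and arrays 1A, 1B and 1C are called set 1 and the rest set 2 from the number in their titles. Between 8495 and 8555 probes had a value on each array, and the precision is limited by the number of arrays. Nothing states that arrays of a set came from separate cultures, so the errors may be technical.

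Semaphorins are secreted or membrane-bound guidance proteins that steer axons, vessels and migrating cells. Most but not all secreted class 3 semaphorins bind a neuropilin, which has a short cytoplasmic tail. They signal through a plexin, whose cytoplasmic part acts on small GTPases of the Ras family and alters the cytoskeleton and adhesion. Plexin D1 is the receptor of semaphorin 3E and guides growing vessels, and neuropilin 2 binds semaphorin 3F and also vascular endothelial growth factor C. Microtubule-associated protein 2 stabilises microtubules in dendrites and anchors the type II regulatory subunit of protein kinase A, the kinase that cyclic AMP activates downstream of this receptor. L1CAM is an immunoglobulin-family adhesion molecule of axons that also forms complexes with neuropilin 1. UCHL1 is a ubiquitin C-terminal hydrolase that is abundant in neurons.

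Plxnd1 lies on mouse chromosome 6 (115954811 to 115995339), Nrp2 (62703317 to 62818692) and Map2 (66175202 to 66442583) both on chromosome 1, Uchl1 on chromosome 5 (66676121 to 66687234) and L1cam on chromosome X (73853778 to 73880838), in GRCm38.p6 of RefSeq. Where the probes lie within these genes is not known here. The windows shown run from 250 bases before to 50 after a transcript start of the RefSeq promoter table and are given for the 3 genes with the lowest ratios and for Uchl1, because these genes have low ratios together and the receptor acts through cyclic AMP, whose response element is a short promoter motif. Capitals mark the GC box GGGCGG, read on either strand, and the word GGGCGTG, which was picked out after reading the Plxnd1 window. The start in the window is the outermost base of the gene for Nrp2 and Uchl1. For Plxnd1 it is base 115995005, 334 bases inside the gene's span, so that the whole Plxnd1 window lies within that span, and for Map2 it is base 66175329, 127 bases inside. All sequences run 5′ to 3′ along the gene and are from RefSeq, GRCm38.p6.
Plxnd1, chr6:115994956-115995255, minus strand: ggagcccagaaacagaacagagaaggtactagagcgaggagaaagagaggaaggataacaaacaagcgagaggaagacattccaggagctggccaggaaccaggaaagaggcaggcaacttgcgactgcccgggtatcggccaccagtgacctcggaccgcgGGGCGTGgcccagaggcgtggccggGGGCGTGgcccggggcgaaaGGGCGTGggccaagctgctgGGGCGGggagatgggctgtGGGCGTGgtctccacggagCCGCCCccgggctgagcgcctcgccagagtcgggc
Nrp2, chr1:62703067-62703366, plus strand: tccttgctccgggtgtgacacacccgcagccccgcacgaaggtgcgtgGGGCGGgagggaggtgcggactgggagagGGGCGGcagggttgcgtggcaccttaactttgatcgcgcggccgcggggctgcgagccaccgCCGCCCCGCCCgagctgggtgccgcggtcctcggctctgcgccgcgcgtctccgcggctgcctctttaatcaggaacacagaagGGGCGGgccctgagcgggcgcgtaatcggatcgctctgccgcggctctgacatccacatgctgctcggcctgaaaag
Map2, chr1:66175079-66175378, plus strand: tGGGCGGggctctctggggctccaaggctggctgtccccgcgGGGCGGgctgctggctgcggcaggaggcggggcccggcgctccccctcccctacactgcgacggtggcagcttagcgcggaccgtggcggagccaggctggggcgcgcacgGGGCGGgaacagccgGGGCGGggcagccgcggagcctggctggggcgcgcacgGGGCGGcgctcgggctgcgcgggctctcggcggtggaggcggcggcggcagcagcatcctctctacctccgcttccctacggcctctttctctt
Uchl1, chr5:66675871-66676170, plus strand: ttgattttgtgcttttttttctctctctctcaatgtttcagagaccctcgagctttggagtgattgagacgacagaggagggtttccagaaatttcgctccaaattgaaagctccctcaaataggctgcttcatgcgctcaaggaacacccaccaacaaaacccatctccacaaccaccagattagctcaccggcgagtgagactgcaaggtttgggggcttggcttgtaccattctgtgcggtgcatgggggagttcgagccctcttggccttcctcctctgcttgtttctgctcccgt

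The full cyclic AMP response element TGACGTCA and its short form TGACG, searched on both strands, were in none of these 4 windows nor in either of the 2 L1cam windows of the table. Of all 32851 promoter windows, 1.79% held the full element and 20.8% the short form, which the full element contains. The GC box occurred 5 times in the Nrp2 window and 5 times in the Map2 window, and 2.71% of all windows held it at least 5 times. In the Nrp2 window 2 of the matches share 1 base. It occurred 2 times for Plxnd1 and 0 times for Uchl1. The word GGGCGTG occurred 4 times in the Plxnd1 window, on the gene's own strand, and 0.0457% of all windows held it 4 times or more. All 4 matches begin in the 88 bases before the transcript start. The last begins 4 bases before that start and runs across it. The Map2 window was 77.7% G and C, the Nrp2 window 70.7%, the Plxnd1 window 67.0% and the Uchl1 window 50.7%, against a median of 52.7% over all windows. The TATA box TATAAA and the CCAAT box were in none of the 4 windows shown. These matches describe letters only.

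The ratios of all 5 genes lay below 0 on every array, so that all 30 values were negative. Among the rows with 6 values, 8.51% were negative on all 6 arrays. All 5 genes were also among the rows called by the fit, at an adjusted p under 0.05 from limma (Benjamini-Hochberg over all rows). That call was made for 7.11% of the 6807 rows, and for 3.09% in the lower and 4.03% in the higher direction. The genes were selected on these calls. When the set was a random replicate block (correlation 0.295) only Nrp2 of the 5 was called, as with array weights, and with sets averaged within an orientation 0 of 5 were called by limma, where 929 of all rows had an unadjusted p under 0.05. In bulk RNA, fewer cells of a type and less RNA per cell cannot be told apart.

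**Figure D1:**
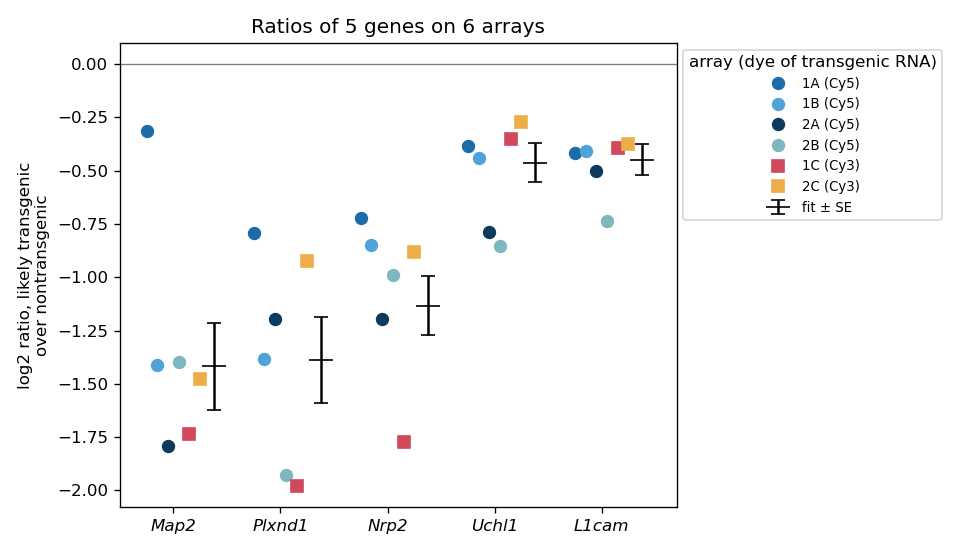
Log2 ratio (vertical axis, likely transgenic over nontransgenic) of each gene on each array, with circles for arrays with transgenic RNA in Cy5, squares for the swapped arrays, and the fitted ratio ± SE as a black bar. All 30 points lie below 0; Map2 on array 1A, at -0.31, stands apart from the other 5 Map2 values.

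The semaphorin receptors had among the lowest ratios. Plxnd1, the plexin, was at -0.79, -1.38, -1.20 and -1.93 on 1A, 1B, 2A and 2B and at -1.98 and -0.92 on the swapped arrays 1C and 2C. The lowest values came from 1 array of each orientation, 2B and 1C, and the orientations overlapped. The fitted ratio was -1.39 ± 0.20 (SE, n = 6 arrays). In the likely direction that is 38.2% of the nontransgenic level, and in the opposite one it would be 2.62-fold higher in transgenic cells; the shares given for the other genes depend on the direction in the same way. Nrp2, the neuropilin, was at -0.72, -0.85, -1.20 and -0.99 on 1A, 1B, 2A and 2B and at -1.77 and -0.88 on 1C and 2C. Array 1C was the lowest, and the other 5 values lay closer together. The fitted ratio of Nrp2 was -1.13 ± 0.14, or 45.6% of the nontransgenic level. Plxnd1 was lower than Nrp2 on 6 of 6 arrays, by 0.30 ± 0.37 (mean and SD), although their ranges overlapped. On 2A the 2 genes were practically level, at -1.1965 and -1.196, and on 1A and 2C they were close.

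Map2, the microtubule-associated protein, had the lowest fitted ratio of the 5 genes, -1.42 ± 0.20, or 37.4% of the nontransgenic level. Its values were -0.31, -1.41, -1.79 and -1.40 on 1A, 1B, 2A and 2B and -1.74 and -1.48 on 1C and 2C. Array 1A stood apart from the other 5, and without it the fit gave -1.57. Map2 and Plxnd1 could not be ordered, since each was lower than the other on 3 of 6 arrays. The order of fitted ratios from the lowest was Map2, Plxnd1, Nrp2, Uchl1 and L1cam, and each pair of neighbours in that order overlapped in range. Plxnd1 was lower than Nrp2 on every array, though practically level with it on 2A. Nrp2 was lower than Uchl1 on every array, while Uchl1 and L1cam changed places.

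Uchl1, the ubiquitin hydrolase, had ratios closer to 0. It was at -0.38, -0.44, -0.79 and -0.85 on 1A, 1B, 2A and 2B and at -0.35 and -0.27 on 1C and 2C, with arrays 2A and 2B apart from the other 4. The fitted ratio was -0.46 ± 0.09, or 72.5% of the nontransgenic level. L1cam and Uchl1 were close, each lower than the other on 3 of 6 arrays, and their difference was 0.04 ± 0.14 (mean and SD, L1cam minus Uchl1).

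L1cam, the adhesion molecule, rested on 2 probes that differed. As the mean of both it was at -0.41, -0.41, -0.50 and -0.74 on 1A, 1B, 2A and 2B and at -0.39 and -0.37 on 1C and 2C, the narrowest spread of the 5 genes (SD 0.14 over 6 arrays). The fitted ratio was -0.45 ± 0.07, or 73.2% of the nontransgenic level. Probe 751217 alone was at -0.97, -1.25 and -0.76 on the set 2 arrays 2A, 2B and 2C and at -0.50, -0.45 and -0.45 on the set 1 arrays 1A, 1B and 1C. Probe 695246 alone was at -0.04, -0.23 and 0.01 on 2A, 2B and 2C and at -0.33, -0.37 and -0.34 on 1A, 1B and 1C. The probes were thus close together in set 1 and apart in set 2, with probe 751217 lower and probe 695246 higher on the set 2 arrays than on those of set 1, which their mean does not show. Tested singly, the fitted ratios were -0.70 ± 0.14 for probe 751217 and -0.20 ± 0.09 for probe 695246. Probe 695246 alone was not called (limma, adjusted p = 0.193), and it was lower on 5 of 6 arrays.

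The difference between the L1cam probes, 751217 minus 695246, averaged -0.91 ± 0.12 in set 2 and -0.12 ± 0.04 in set 1 (SD, n = 3 arrays each). The sets did not overlap, and the exact permutation test over arrays gave p = 0.10, two-sided, the smallest that 3 arrays against 3 can give. This comparison was chosen after its values were seen. In the fit across all single probes, set 2 minus set 1 was -0.53 ± 0.13 for probe 751217 (limma, unadjusted p = 0.0116, adjusted p = 0.102) and 0.26 ± 0.10 for probe 695246 (limma, unadjusted p = 0.0471, adjusted p = 0.198). Both had an unadjusted p under 0.05, in opposite directions, and neither passed after adjustment. An unadjusted p under 0.05 was common in that fit, at 2081 of 8500 probes by limma.

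**Figure D2:**
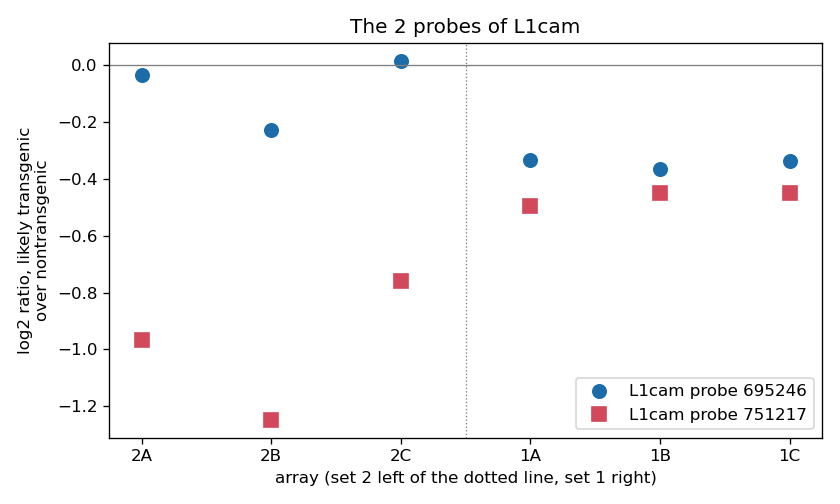
Log2 ratio (vertical axis) of the 2 L1cam probes on each array, set 2 left of the dotted line and set 1 right of it. Probe 751217 is below probe 695246 on all 6 arrays, by 0.93, 1.02 and 0.77 in set 2 and by 0.16, 0.08 and 0.11 in set 1.

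Since the arrays differ in scatter, each gene was also placed among all rows of the same array. On array 2C, 0.294% of rows had a lower ratio than Map2, but on 1A 16.9% did. Plxnd1 had between 0.456% (2B) and 3.78% (1A) of rows below it, and Nrp2 between 1.31% (1C) and 6.41% (1B). These receptors thus stayed in the lowest part of every array, the wide array 1C included. L1cam had 7.11% to 19.6% of rows below it and Uchl1 5.39% to 21.9%, both with the highest share on 1C. In the fit over all arrays, Map2 ranked 40th, Plxnd1 43rd and Nrp2 54th from the lowest of 6807 rows, while Uchl1 ranked 373rd and L1cam 407th. Beyond 2-fold lower in that fit lay 3 of the 5 genes and 1.04% of all rows. The 5 genes were chosen for low ratios in this same comparison, so setting them beside all rows is no test. Without array 1C the fitted ratio of Nrp2 was -0.91, short of 2-fold, while Plxnd1 was at -1.12 and Map2 at -1.35.

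**Figure D3:**
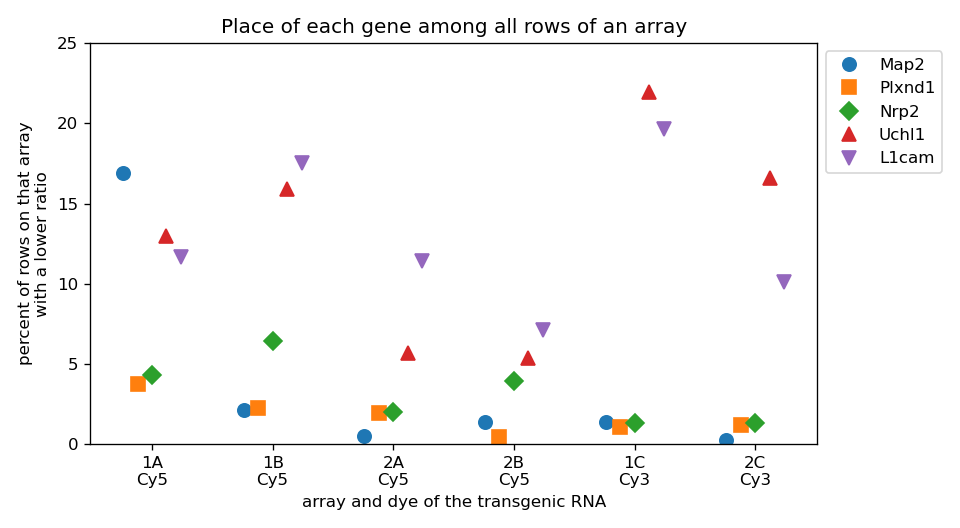
Percent of all rows on an array that had a lower ratio than the gene (vertical axis), for each of the 6 arrays with the dye of the transgenic RNA below. Map2, Plxnd1 and Nrp2 lie at or under 6.41% except Map2 on 1A at 16.9%, and Uchl1 and L1cam lie between 5.39% and 21.9%.

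The ratios were next set out by the dye of the transgenic RNA. The dye term comes from the same fit and arrays as the ratios that chose the genes, so it is given as a description. It is how far the mean ratio with transgenic RNA in Cy5 lay from the midpoint of both orientations, positive where it was higher than with Cy3. Nrp2 averaged -0.94 where Cy5 marked the transgenic RNA and -1.33 on the swapped arrays, a dye term of 0.19 ± 0.14 (SE). The term was 0.19 ± 0.20 for Map2, 0.06 ± 0.20 for Plxnd1, -0.07 ± 0.07 for L1cam and -0.15 ± 0.09 for Uchl1. Nrp2, Map2 and Plxnd1 were thus lower on average on the swapped arrays, and Uchl1 and L1cam on the others. The swapped arrays differed for Nrp2 (-1.77 on 1C, -0.88 on 2C) and Plxnd1 (-1.98 on 1C, -0.92 on 2C). Of all rows, 18.2% had a dye term with an unadjusted p under 0.05, and at limma's adjusted threshold 0.0147% passed, which is 1 row, Suox.

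The sets were compared as set 2 minus set 1, also as a description, since genes that differ little between arrays were more readily called. Map2 averaged -1.56 in set 2 and -1.15 in set 1, a difference of -0.40 ± 0.39 (SE), with the high value of array 1A in set 1. The difference was -0.25 ± 0.13 for Uchl1, -0.13 ± 0.11 for L1cam as the mean of its probes, 0.09 ± 0.28 for Nrp2 and 0.04 ± 0.43 for Plxnd1. All 5 genes were below 0 in both sets. Of all 6807 rows 0 passed by limma, while 23.7% had an unadjusted p under 0.05.

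**Figure D4:**
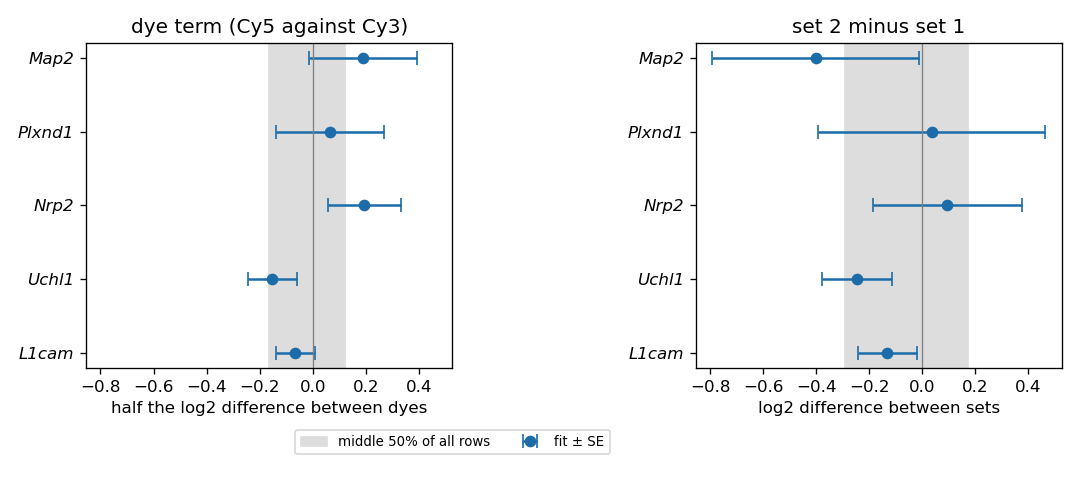
The dye term (left, log2 distance of the Cy5 orientation's mean from the midpoint of both) and the set difference (right, log2, set 2 minus set 1) of each gene with its SE, on a grey band that holds the middle 50% of all rows (-0.17 to 0.12 for dye, -0.29 to 0.17 for set). The largest set difference, -0.40 for Map2, also has a wide error.

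The genes with the most similar ratios were sought over the 6 arrays, as the smallest root mean square difference in log2 ratio among 5614 genes with all 6 values. Nearest to Plxnd1 were Abcg2, an efflux transporter (0.28), Col3a1, a fibrillar collagen (0.31), and Nrp2 itself (0.45). Nearest to Nrp2 were Slc5a3, an inositol transporter (0.17), Lrig1, a transmembrane inhibitor of growth factor receptors (0.17), and Abcg2 (0.19). Abcg2, whose fitted ratio was -1.25 ± 0.15, was also nearest to Map2 (0.37), followed by Ccnd1, a D-type cyclin (0.37), and Col3a1 (0.40). L1cam lay nearest to Shmt2, a mitochondrial enzyme of serine metabolism (0.10), Anp32e (0.10) and Basp1, a growth cone membrane protein (0.13), and Uchl1 to Anp32e (0.11), L1cam (0.14) and Wdr75 (0.14). Nrp2 was thus among the 3 nearest of Plxnd1, and L1cam among the 3 nearest of Uchl1, but not the other way round.

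Other genes of these pathways were then counted in lists that leave out the 5 genes. Of 61 measured genes over all lists, 5 fell and 1 rose, a share of 9.84% against 7.11% of all rows, and their median log2 ratio was -0.071, against 0.002 over all rows. When the set was a random replicate block 1 of the 6 calls was left, without the dye term 1, with sets averaged within an orientation 0 (9 at an unadjusted p under 0.05), and with 1 array left out 0 to 16 genes were called. Calls here are limma's adjusted p under 0.05, and the share is near the background. At limma's unadjusted p under 0.05 there were 14 of the 61 genes, and 1888 of all 6807 rows.

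Among the ligands, 6 semaphorin genes of a list of 20 were measured, 1 fell and 0 rose, and the median was -0.212. Sema3a, a secreted ligand that signals through neuropilin 1 and A-type plexins, was at -0.55, -0.87, -0.999 and -0.89 on 1A, 1B, 2A and 2B but at -0.06 and 0.14 on the swapped arrays 1C and 2C. The orientations did not overlap. Its fitted ratio was -0.39 ± 0.09 (adjusted p = 0.0496), and its dye term of -0.43 ± 0.09 (adjusted p = 0.171, unadjusted p = 0.0022 by limma) was as large. With the set as a random block its adjusted p was 0.154. Sema3e, the ligand of plexin D1, was at -0.15 ± 0.11 (adjusted p = 0.401), and Sema3f, the ligand of neuropilin 2, at 0.19 ± 0.11 (adjusted p = 0.301). Sema3g stood at -0.42 ± 0.23 (adjusted p = 0.289), with -1.60 on array 2B alone, and Sema4d at -0.27 ± 0.19.

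Of the other receptors, none of 5 plexin and neuropilin genes passed (0 at an unadjusted p under 0.05), and the median was -0.173. Nrp1, the other neuropilin, was at -0.28 ± 0.16 (adjusted p = 0.294, lower on 5 of 6 arrays), with -0.57 on 2C and 0.49 on 1C. Plxnc1 was at -0.40 ± 0.33 and Plxna2 at -0.17 ± 0.12. Whether Nrp2 and Nrp1, or Plxnd1 and the other plexins, differ in ratio was not tested. Of 3 vascular endothelial growth factor genes none passed: Flt1 was at -0.10, Flt4, the receptor of the ligand that neuropilin 2 binds, at -0.07 and Pgf at 0.09.

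Of 9 measured genes that carry plexin signals inward, 1 fell and 0 rose (median -0.018). Rap1a, a Ras-family GTPase on which plexins act, fell (-0.48 ± 0.09, adjusted p = 0.0318, lower on 6 of 6 arrays), but its probes gave -0.80 and -0.16. Its adjusted p was 0.115 with the random set block and 0.0598 without the dye term. Rnd2 was at -0.68 ± 0.34 and Rras2 at 0.41 ± 0.18, neither past the threshold. Of 11 other axon guidance genes, Efna5, an ephrin ligand, fell (-0.33 ± 0.06, adjusted p = 0.0354) and Slit3, a secreted ligand of Robo receptors, rose (0.45 ± 0.09, adjusted p = 0.0378, higher on 6 of 6 arrays). With the random set block the adjusted p was 0.108 for Efna5 and 0.109 for Slit3, without the dye term 0.0620 and 0.0533, and both calls were also lost without any 1 array other than 2C. Epha3 at 0.66 ± 0.50 and Efnb3 at -0.62 ± 0.31 did not pass, and the median was -0.053. Epha3 was at 3.77 on array 1C but lower on 5 of 6 arrays.

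Around Map2, none of 9 other microtubule-associated genes and none of 5 tubulin genes passed (3 and 0 at an unadjusted p under 0.05), with medians of -0.001 and -0.113. Mapre1, a plus-end binding protein, was at 0.80 ± 0.36, with 2.88 on array 1C and -0.01 to 0.24 on the others. Dclk1, a doublecortin-like kinase, was at 0.33 ± 0.09 (adjusted p = 0.0754), with 0.86 at 1 of its 3 probes and 0.07 and 0.06 at the others, and Clip2 was at -0.29 ± 0.14. Tubg1 was at -0.44 ± 0.21 and Tubb5 at -0.21 ± 0.10. Of 5 protein kinase A subunit genes, Prkar2a, the type II regulatory subunit of the kind that MAP2 anchors, fell. It was at -0.26, -0.29, -0.29 and -0.33 on 1A, 1B, 2A and 2B and at -1.05 and -0.38 on 1C and 2C, with a fitted ratio of -0.50 ± 0.10 (adjusted p = 0.0400). Its adjusted p was 0.127 with the random set block and 0.0801 without the dye term. Prkar1a was at 0.29 and Prkar1b at 0.22, neither past the threshold.

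Around L1cam, 7 genes of the L1 family, other neural immunoglobulin adhesion molecules and their cytoskeletal partners were measured, 1 fell and 0 rose (median -0.169). Mcam, an immunoglobulin-family adhesion molecule, was at -0.41, -0.34, -0.27 and -0.45 on 1A, 1B, 2A and 2B and at -0.95 and -0.59 on 1C and 2C. It was lower on every array, most of all on the swapped ones, and its fitted ratio was -0.57 ± 0.08 (adjusted p = 0.0127, and 0.0441 with the random set block). Cntnap2 at 0.61 and Rdx, which links membrane proteins to actin, at 0.40 did not pass. Of the ubiquitin hydrolases and ubiquitin genes only Uchl5 was measured, at 0.04.

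**Figure D5:**
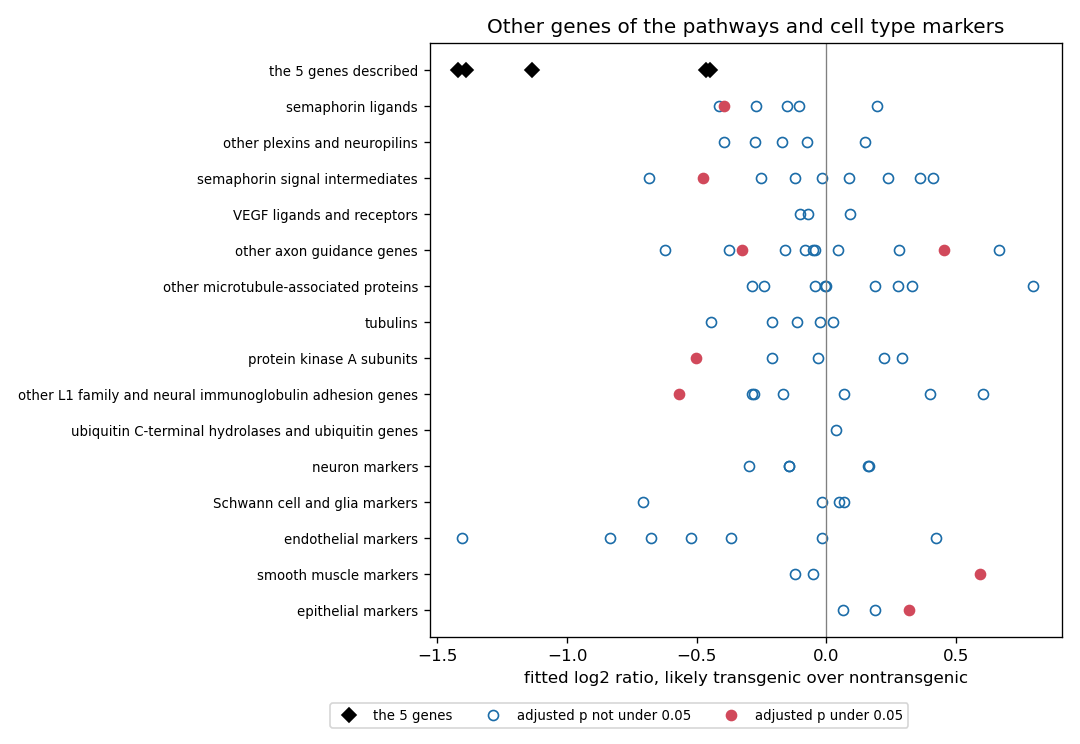
Fitted log2 ratio (horizontal axis) of every measured gene in each list, 1 point per gene, filled where limma's adjusted p is under 0.05, with the 5 genes described above as black diamonds. Map2, Plxnd1 and Nrp2 lie below every measured pathway gene, whose lowest value is -0.68. They were chosen for low ratios in this same comparison, so their place is no test. Among the cell type markers Lyve1, at -1.41, lies below Plxnd1 and Nrp2.

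Of the 6 called genes of these lists, Mcam alone kept its call with the random set block. Without array 2B no gene of the lists was called by limma (11 at an unadjusted p under 0.05), with Mcam at an adjusted p of 0.0524. Without 1B, 2A or 1C Mcam alone was called, without 1A Mcam and Sema3a, and without 2C 16 genes.

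Markers of other cells that a trachea holds were measured beside these genes. The array gives ratios and not levels, so whether such cells were present cannot be read from it. None of 5 neuron markers passed (1 at an unadjusted p under 0.05), and their median was -0.144. Nefl, a neurofilament subunit, was at -0.30 ± 0.09, with -0.43 to -0.92 on 1A, 1B, 2A and 2B and 0.11 and 0.21 on the swapped ones. In this list 3 genes were negative in the fit, while Prph was at 0.17 ± 0.16 and Nefm at 0.16 ± 0.26. Nefm was also split by orientation, at -0.33, -0.78, -1.38 and -1.25 on 1A, 1B, 2A and 2B. On 1C and 2C it was at 2.08 and 0.42. The list's median was -0.300, -0.333, -0.284 and -0.149 on 1A, 1B, 2A and 2B, and 0.113 and 0.055 on 1C and 2C. None of 4 Schwann cell and glia markers passed (1 at an unadjusted p under 0.05), and their median was 0.015. Ngfr, the neurotrophin receptor p75, was at -0.71 ± 0.21 (adjusted p = 0.101, lower on 5 of 6 arrays). The others were Pmp22 at 0.07, Mbp at 0.05 and Erbb3 at -0.02.

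Of 7 endothelial markers none passed (3 at an unadjusted p under 0.05), but 6 were negative and their median was -0.521. Among all 6807 rows, 1888 had an unadjusted p under 0.05 by limma and 3384 were negative. The negative markers included Tie1 at -0.02 and Tek at -0.37 ± 1.03, which had values on 4 arrays only. Emcn, endomucin, was lower on 6 of 6 arrays (-0.68 ± 0.16, adjusted p = 0.0609). Cdh5, the cadherin of endothelial junctions, was at -0.84 ± 0.24 (adjusted p = 0.0957), with -2.44 at 1 of its 3 probes and -0.20 and 0.13 at the others. Eng was at -0.52 ± 0.23. Lyve1, at -1.41 ± 0.88, held the table's floor of -6.64 on array 1C and was positive on 4 of the other arrays, while Esam was at 0.42. The median of this list was -0.154, 0.025 and -0.038 on the set 2 arrays 2A, 2B and 2C and -0.231, -0.646 and -0.681 on the set 1 arrays 1A, 1B and 1C, whereas Plxnd1 and Nrp2 averaged -1.35 and -1.02 in set 2 and -1.39 and -1.12 in set 1. Without 1C the list lost Tek, which had no value on 2C, and Lyve1 lost its floor value. The median of the 6 markers left was then -0.077, with Plxnd1 at -1.12 and Nrp2 at -0.91. Members of the list went both ways in set 2, where Emcn was at -0.27, -0.57 and -0.39 and Esam at 1.01, 0.83 and -0.09 on 2A, 2B and 2C. The part of endothelial cells in the ratios of the receptors was not tested. Of 3 smooth muscle markers Cnn1, calponin 1, rose (0.59 ± 0.10, adjusted p = 0.0280), with Cald1 at -0.12 and Smtn at -0.05, and of 3 epithelial markers Cdh1 rose (0.32 ± 0.06, adjusted p = 0.0333). With the set as a random block, limma's adjusted p was 0.0602 for Cnn1 and 0.101 for Cdh1. What part these markers have in the ratios of Map2, L1cam and Uchl1 was not tested. The receptor's own transcript was not analysed here.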

How the data were processed

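The authors deposited 1 log2 ratio per probe for each of 6 two-colour arrays. Per the labels' protocols, Cy3- and Cy5-labelled cDNA competed on printed slides. How they scanned, corrected and normalized the slides, and which RNA is on top of the ratio, was not given. Medians of the deposited log2 columns lie between -0.0012 and 0.0007. The lowest value, -6.64, stands for a ratio of 0.01. No spot intensities were used.

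For each array, probes sharing a single symbol were averaged, others stayed single, and a row needed 4 or more arrays including both orientations, which left 6807 rows. All 5 symbols matched GRCm38.p6 of RefSeq through the Entrez ID. limma 3.58.1 (R 4.3.3; lmFit, eBayes) fitted a genotype and a dye term over all 6 arrays, and a further term for the set; p-values were adjusted by Benjamini-Hochberg over all rows. The fit was tried on simulated data with independent normal noise, where 200 of 6807 rows were given a genotype change. It called 100% of the changes of 1 log2 unit and 74% of those of 0.5. It also called 28 rows that had no simulated genotype change. The simulation held no correlation within a set, so it does not show how reliable the calls on the real arrays are. The genes named are the 5 genes, list genes past the threshold or up to 3 largest of a list, and the 3 nearest genes of each. Sema3e and Sema3f (ligands of the receptors), Eng, Esam, Tie1, Tek and Erbb3 lie outside that rule and were named after their values were seen. The 5 genes and the lists were chosen with earlier results of these data known. Alternatives covered the dye term, direction of swapped arrays, floor, sets, probes, filter, scaling, variance model and each array left out. Python 3.11.15, pandas 2.3.3, numpy 2.4.6 and matplotlib 3.10.9 did the rest.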

Additional observations from a re-analysis of the deposited data

Results flagged for a closer look

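Of 30 groups of values examined for an array far from the rest (the 5 genes, the L1cam probes and the 8 called list and marker genes, each over 6 arrays and over the 4 that were not swapped), 4 held one, all over 6 arrays; chance alone gives about 1 in 20. Map2 had -0.31 on array 1A, with a gap to the next value of 0.732 of its range. L1cam had -0.74 on array 2B (0.651 of its range), where probe 751217 reached -1.25. Prkar2a had -1.05 on array 1C (0.849 of its range) and Slit3 had 0.85 on array 1C (0.661 of its range), the array with the widest scatter.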

How the results depend on the processing

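If the swapped columns were not yet turned, the genotype term would be 0.0638 for Plxnd1, 0.19 for Nrp2, 0.19 for Map2, -0.0661 for L1cam and -0.15 for Uchl1, and 1 row in all and, by limma, 0 of the pathway genes (7 at an unadjusted p under 0.05) would be called. Under the other alternatives the ratios of the 5 genes kept their sign and moved by less than the SD between arrays, except the single L1cam probes (-0.20 and -0.70). Leaving out 1 array gave -1.65 to -1.12 for Plxnd1, -1.36 to -0.91 for Nrp2 and -1.57 to -1.32 for Map2. The call of Nrp2 alone held in each of these 6 fits. The number of called rows (484) was 1049 without the swapped arrays, 197 when the set was a random replicate block (correlation 0.295), 1168 with it as a fixed block, 159 with array weights and 0 by limma with sets averaged within an orientation (929 at an unadjusted p under 0.05). It was 168 to 1687 with 1 array left out, the highest without 2C. The random block left only Nrp2 of the 5 genes called. The 6 called pathway genes became 1 without the dye term, 11, 1, 10, 1 and 0 (9 unadjusted) under the same 5 settings, and 0 to 16 with 1 array left out. For dye, 0 rows passed by limma with floor values missing (1244 unadjusted) or probes tested singly (1546 unadjusted), and 1 to 990 with 1 array left out. For the set difference, 1 probe passed when tested singly, 483024 of Malat1. The arrays carry no levels, so signal over background is unknown.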
